A study of Mus musculus with 2 samples.

Results

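The CC chemokines Ccl2, Ccl3, Ccl4, Ccl6, Ccl7, Ccl8, Ccl9, Ccl11, Ccl12 and Ccl24 are 10 of the 24 gene symbols of this family, and of 32285 genes in all, that were counted in single cells of mouse dorsal skin. They were selected on their measured UMI counts, since they were the family members found in the macrophages and stromal cells of these libraries, so their levels are given here as a description without a test. The skin came from wild-type (WT) male mice, with 1 library pooled from 2 mice at 9 weeks of age and 1 library pooled from 2 mice at 108 weeks, and no treatment or transgene was involved. After digestion with collagenase-A, Dispase-II and DNaseI for 1 hour, cells were sorted as F4/80+ with high MHC class II. The matrix tells the libraries apart only by a barcode suffix, 1 or 2, and neither the labels nor the methods say which suffix is which age. The ages were therefore pooled, and the values of the libraries are set side by side as libraries of unknown age. With 1 library for each age no comparison of ages and no test across animals could be made, and all intervals below cover counting error only.

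Chemokines are small secreted proteins that bind glycosaminoglycans of the extracellular matrix and direct leukocytes along gradients through G protein-coupled receptors. Ccl2, Ccl7 and Ccl12 recruit Ccr2-bearing monocytes from blood. Ccl8 of the mouse is an agonist of Ccr8, and Ccl11 and Ccl24 (eotaxins) attract eosinophils through Ccr3. Ccl3 and Ccl4, the macrophage inflammatory proteins, are rapidly induced in activated macrophages, and Ccl3 signals through Ccr1. Ccl6 and Ccl9 are rodent chemokines that act on Ccr1. Dermal macrophages, dendritic cells and fibroblasts are all known to make members of the family.

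Of 5257 barcodes, 3797 had at least 500 genes, at least 1000 UMIs (unique molecules counted) and at most 10% mitochondrial UMIs, 2396 of them with suffix 1 and 1401 with suffix 2. They held 32802942 and 17997946 UMIs, with medians of 10761 and 11196 UMIs per cell, and the libraries shared 0 barcode sequences among the cells kept. Clustering without any of 70 chemokine and chemokine receptor genes gave 27 clusters, so that the classes below do not rest on the genes they are used to describe. The sort did not give macrophages alone. Macrophage markers such as C1qa and Csf1r defined 1512 cells, dendritic cell markers 526 and fibroblast markers 827, while 1759 cells (46.3%) were neither macrophages nor dendritic cells. Macrophages were 51.3% of library 1 and 20.3% of library 2, and fibroblasts 13.3% and 36.3%, so the libraries differed in which cells they held. The summed level of the 10 macrophage markers was 9812 UMIs per 1000000 (CPM) in macrophages, 1551 CPM in dendritic cells and 169 CPM in fibroblasts. RNA of the other compartment was not at 0. Collagen RNA (Col1a1, Col1a2 and Col3a1) summed to 311 CPM in macrophages, C1q RNA to 37.4 CPM in fibroblasts, and 375 of the 1512 macrophages held 5 or more UMIs of these collagens and Dcn.

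Macrophages fell into resident macrophage-like cells (601; Folr2, Cd163), Dcstamp macrophage-like cells (389; Dcstamp, Fn1), 24 inflammatory macrophage-like cells (Il1a, Tnf) and clusters left unnamed that are called here by a leading gene, the Ly6c2 macrophage cluster (308) and the Spp1 macrophage cluster (190). The inflammatory name goes against part of its marker list, since Acod1 was at 0 of 167598 UMIs, which allows up to 17.9 CPM. Fibroblasts fell into Ptx3 Inmt fibroblast-like (379), Igfbp2 fibroblast-like (338) and dermal-papilla fibroblast-like cells (110). The 10 chemokines held 314758 UMIs, 0.620% of all. They took 3.51% of the UMIs of inflammatory macrophage-like cells, 2.21% of resident macrophage-like cells and 1.55% of Ptx3 Inmt fibroblast-like cells, against 0.121% in dendritic cells and 0.0128% in keratinocyte-like cells.

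**Figure D1:**
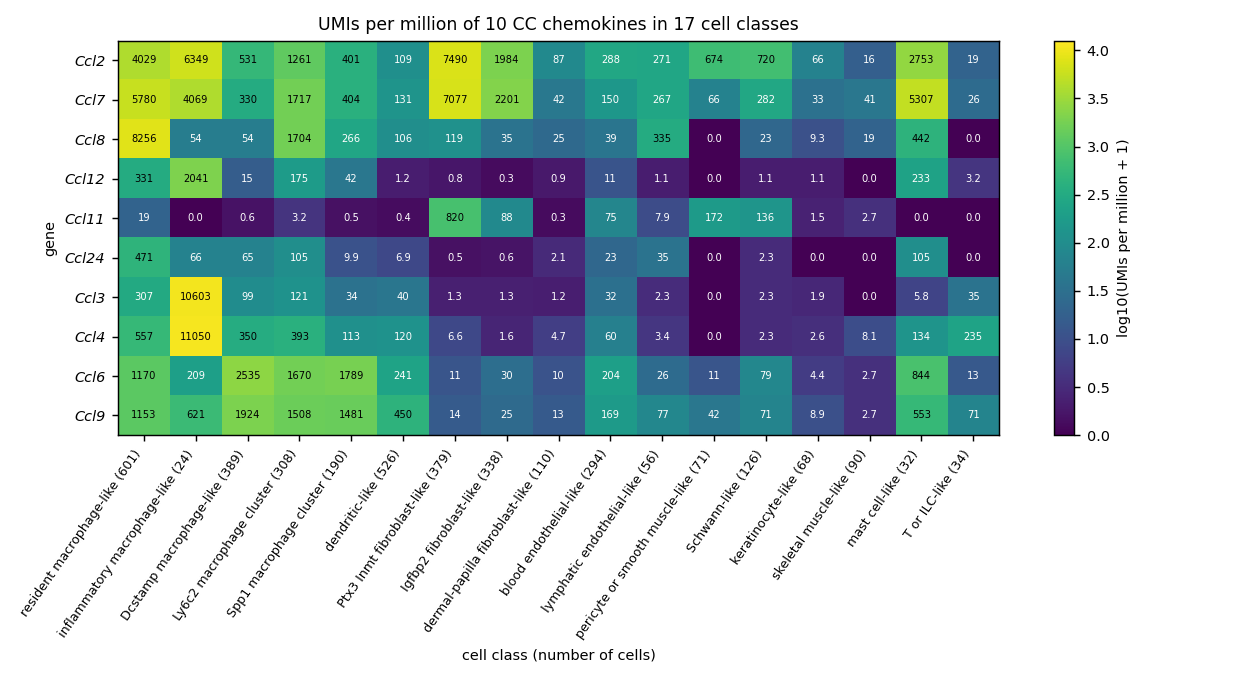
Level of each of the 10 chemokines (rows) in 17 cell classes (columns, with the number of cells), as UMIs per 1000000, printed in each field and coloured on a log10 scale. Ccl2 and Ccl7 are high in both resident macrophage-like cells and Ptx3 Inmt fibroblast-like cells, Ccl8, Ccl24, Ccl6 and Ccl9 in macrophage classes, Ccl11 in Ptx3 Inmt fibroblast-like cells, and Ccl3 and Ccl4 in the 24 inflammatory macrophage-like cells.

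Macrophages and fibroblasts shared Ccl2 and Ccl7 and divided the other chemokines between them. Of the 10 genes, 7 were 4-fold or more higher in macrophages than in fibroblasts, 1 (Ccl11) was 4-fold or more higher in fibroblasts, and Ccl2 and Ccl7 were within that limit. Among all 12615 genes tested (those with at least 30 UMIs over both), 10.4% were 4-fold or more higher and 18.1% were 4-fold or more lower in macrophages. The median log2 ratio was 6.43 for the 10 genes and -0.16 over all genes. The ratios of the 7 ran from 51.6-fold for Ccl8 to 297-fold for Ccl12, with 195-fold for Ccl24 and 205-fold for Ccl3 between them. All 7 stayed past 4-fold in each library alone, without the 24 inflammatory macrophage-like cells, and after cells with RNA of the other compartment were removed.

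**Figure D2:**
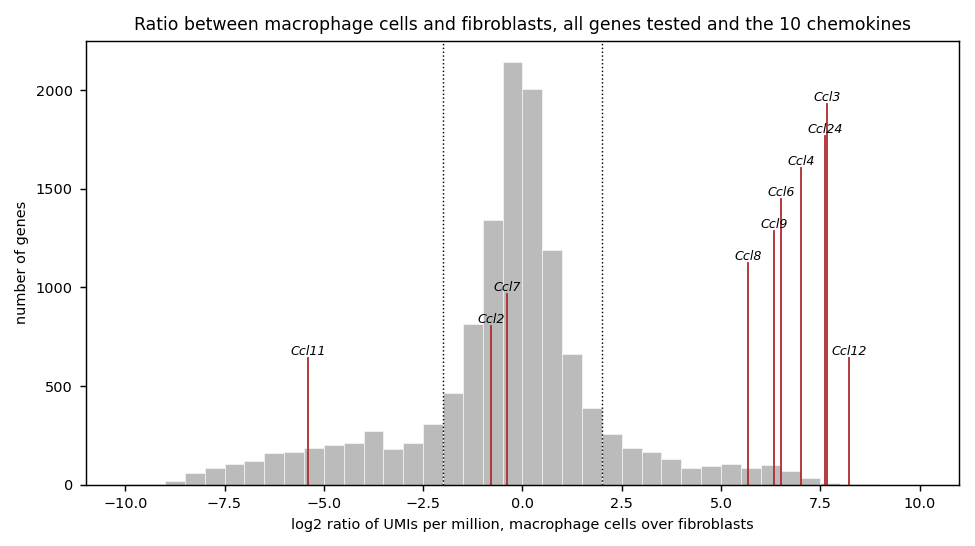
Number of genes (grey bars) by the log2 ratio of UMIs per 1000000 in macrophages over fibroblasts, for the 12615 genes tested, with red lines at the 10 chemokines (their heights only keep the names apart) and dotted lines at 4-fold. Ccl11 lies at -5.39, Ccl2 and Ccl7 between the dotted lines, and the other 7 at 5.69 or above.

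Of the 10 genes, 9 lie in clusters on 1 chromosome, and over all 17 classes some neighbours, though not most, were alike in where they were counted. In GENCODE vM21 (GRCm38, the mm10 build that the labels name), Ccl2, Ccl7, Ccl11, Ccl12 and Ccl8 follow each other on the plus strand of chromosome 11, from chr11:82035571-82037453 (Ccl2) to chr11:82115185-82116799 (Ccl8), with no other protein-coding gene between them. After a gap of 1456119 bases come Ccl9 (chr11:83572919-83578636), Ccl6 (chr11:83587882-83593087) and Ccl3 (chr11:83647844-83649355) on the minus strand and Ccl4 (chr11:83662584-83664683) on the plus strand. Ccl24 stands apart on the minus strand of chromosome 5 (chr5:135569937-135573049). Across the 17 classes, the closest pairs by Pearson r of log2(CPM + 10) were Ccl6 and Ccl9 (r = 0.96), Ccl3 and Ccl4 (0.94) and Ccl2 and Ccl7 (0.93), each a pair of neighbours, 9245, 13228 and 8258 bases apart. Without the inflammatory macrophage-like class these values were 0.97, 0.92 and 0.92. The other neighbours were less alike over the 17 classes, with r of 0.26 for Ccl7 and Ccl11, -0.34 for Ccl11 and Ccl12, 0.58 for Ccl12 and Ccl8 and 0.52 for Ccl6 and Ccl3, below pairs that are not neighbours such as Ccl12 and Ccl4 (0.86). Without the inflammatory class these neighbours had r of 0.34, -0.29, 0.83 and 0.78, and Ccl12 and Ccl4 had 0.74. The low values of Ccl12 with Ccl8 and of Ccl6 with Ccl3 thus depended on that class. The classes share libraries, so these values are a description. No stretch of 91 bases (the length of the sequenced insert) occurred in transcripts of more than 1 gene for any of the 10, so reads of the exact sequence are not shared between them. Ccl2 and Ccl6 each overlap a gene on the opposite strand, Gm17268 and E230016K23Rik.

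Ccl2, the main Ccr2 ligand for monocytes, was high in inflammatory macrophage-like cells and in Ptx3 Inmt fibroblast-like cells. The 24 inflammatory macrophage-like cells had 5976 CPM in library 1 and 10136 CPM in library 2, the latter from 2 cells. Ptx3 Inmt fibroblast-like cells had 5899 and 7945 CPM, and resident macrophage-like cells 3837 and 4708 CPM. In library 1 the intervals overlapped, 5595 to 6377 CPM in the inflammatory cells and 5739 to 6063 CPM in the Ptx3 Inmt fibroblast-like cells. The order of these classes was therefore not settled there. In library 2, 1 inflammatory cell held 150 Ccl2 UMIs and the other held 2. Over both libraries the sums were 6349 CPM in the inflammatory cells and 7490 CPM in the Ptx3 Inmt fibroblast-like cells. Library 2 gave 300 of the 379 Ptx3 Inmt fibroblast-like cells and 2 of the 24 inflammatory cells. Resident macrophage-like cells lay below both classes in each library. Mast cell-like cells (2753 CPM over 32 cells) and Igfbp2 fibroblast-like cells (1984 CPM) came next. Dendritic-like cells had 109 CPM, close to the 87.5 CPM of dermal-papilla fibroblast-like cells and the 65.6 CPM of keratinocyte-like cells. After each cell was thinned to 2000 UMIs, 82.6% of 570 resident macrophage-like cells (95% Clopper-Pearson interval 79.3 to 85.7%) and 67.5% of 348 Ptx3 Inmt fibroblast-like cells (62.3 to 72.4%) held a Ccl2 UMI, against 4.55% of 66 keratinocyte-like cells (0.947 to 12.7%). Unthinned, the shares were 91.5%, 73.6% and 39.7%, at median depths of 8754, 10225 and 22854.5 UMIs.

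Ccl7, which binds Ccr2 as well as other receptors, largely followed Ccl2 over the 17 classes (r = 0.93), but not in each of them. In pericyte or smooth muscle-like cells Ccl2 was at 674 CPM and Ccl7 at 65.7 CPM, and in mast cell-like cells at 2753 and 5307 CPM. Ptx3 Inmt fibroblast-like cells had 4681 CPM in library 1 and 7763 CPM in library 2, and resident macrophage-like cells 5441 and 6982 CPM, so the order of the leading classes differed between the libraries. The Igfbp2 fibroblast-like cells had 1294 and 3223 CPM, dendritic-like cells 159 and 70.4 CPM. Thinned to 2000 UMIs, 87.4% of resident macrophage-like cells (84.4 to 90.0%) and 76.7% of Ptx3 Inmt fibroblast-like cells (71.9 to 81.1%) held a Ccl7 UMI, against 3.03% of keratinocyte-like cells (0.369 to 10.5%). In mast cell-like cells Ccl7 reached 5307 CPM, but this class is shallow (median 3536 UMIs) and held C1q RNA at 559 CPM and collagen RNA at 2892 CPM, whose part in its chemokine values was not tested.

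Summed over all fibroblasts and all macrophages, Ccl2 and Ccl7 changed order with the library. In library 1, Ccl2 was at 1712 CPM in macrophages and 1326 CPM in fibroblasts, and in library 2 at 2098 and 5151 CPM. Ccl7 was at 2205 and 1171 CPM in library 1 and at 2887 and 5262 CPM in library 2. The macrophage levels lay close together in the libraries and the fibroblast levels did not. The libraries also differed in fibroblast classes, with 79 of 318 fibroblasts of library 1 and 300 of 509 of library 2 being Ptx3 Inmt fibroblast-like, and in the levels within the classes, and the part of each was not tested. Igfbp2 fibroblast-like cells were made of a cluster of 195 cells, 177 of them from library 2, with 2558 CPM of Ccl2, and a cluster of 143 cells, 142 from library 1, with 1421 CPM. A difference between libraries in this class therefore cannot be told apart from a difference between the clusters.

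Fibroblast classes did not share these chemokines evenly. Compared with the other fibroblasts, 3 of the 7 members tested were 4-fold or more higher in Ptx3 Inmt fibroblast-like cells, namely Ccl2 (5.69-fold), Ccl7 (4.91-fold) and Ccl11 (14.3-fold), while 2.31% of 10979 genes were. In library 2 alone Ccl2 (3.15-fold) and Ccl7 (2.67-fold) were under 4-fold and Ccl11 (5.96-fold) was the 1 member past it, and in library 1 alone 5 members were, Ccl2, Ccl7, Ccl11, Ccl8 and Ccl4. Dermal-papilla fibroblast-like cells, which sit at the base of the hair follicle in the tissue, had 87.5 CPM of Ccl2 and 42.4 CPM of Ccl7, 47.0-fold and 96.4-fold below the other fibroblasts. A small cluster of 27 cells within the Ptx3 Inmt fibroblast-like class, led by Pi16 and Sfrp2, had 9738 CPM of Ccl2 and 3817 CPM of Ccl7, against 7285 and 7374 CPM in the main cluster of 352 cells.

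Ccl12, a Ccr2 ligand that is found in rodents, was counted mainly in macrophages. Inflammatory macrophage-like cells had 2041 CPM (95% Poisson interval 1830 to 2269), with 1678 CPM in library 1 and 5735 CPM in the 2 cells of library 2. Resident macrophage-like cells had 292 and 467 CPM, mast cell-like cells 311 and 140 CPM (40 UMIs in all) and the Ly6c2 macrophage cluster 165 and 205 CPM. The Dcstamp macrophage-like cells had 15.2 CPM and dendritic-like cells 1.17 CPM. In fibroblasts 8 UMIs were counted in all, which is 0.593 CPM. Macrophages held 96.5% of all Ccl12 UMIs, and 0 of 519 thinned dendritic-like cells held one, which allows a share of up to 0.578%. The inflammatory cells were uneven, as 3 of the 24 held 67.0% of the class's Ccl12 UMIs and 13 held none.

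Ccl8 had its highest level in resident macrophage-like cells, with 8119 CPM in library 1 and 8740 CPM in library 2. The Ly6c2 macrophage cluster came next with 1822 and 1352 CPM, below the resident cells in both libraries. Mast cell-like cells had 740 and 89.0 CPM, from 69 and 7 UMIs, and the Spp1 macrophage cluster 324 and 25.2 CPM, so both were higher in library 1. Dcstamp macrophage-like cells had 54.1 CPM and inflammatory macrophage-like cells 53.7 CPM, so the class with the most Ccl3 and Ccl4 held almost none of the Ccl8. Resident macrophage-like cells held 77.5% of all Ccl8 UMIs, and 78.4% of them (74.8 to 81.7%) had a Ccl8 UMI after thinning, against 3.95% of Dcstamp macrophage-like cells (2.23 to 6.43%) and 1.52% of keratinocyte-like cells (0.0384 to 8.16%). Outside the macrophages, Ptx3 Inmt fibroblast-like cells had 119 CPM, with a Ccl8 UMI in 143 of 379 cells before thinning. Some other values outside the macrophages rested largely on a lone cell. A lone cell held 285 of the 297 Ccl8 UMIs of lymphatic endothelial-like cells, which stood at 335 CPM with it and 13.8 CPM without it, and a lone cell held 427 of the 822 UMIs of dendritic-like cells, 106 CPM with it and 51.4 CPM without it.

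Ccl8 and Ccl12 are neighbours on the chromosome. The sequences in front of them are given because both genes were counted mainly in macrophages, with their highest levels in different classes. By number of UMIs the resident macrophage-like cells led for both, with 1685 of the 3239 Ccl12 UMIs, against 342 in the inflammatory cells. RefSeq promoter windows (GRCm38.p6) were at hand for 5 of the 10 genes, Ccl3, Ccl6, Ccl8, Ccl9 and Ccl12. The 250 bases before the start of Ccl8 and Ccl12 are printed 5′ to 3′ on the strand of the gene, with capitals at the motif TATAAA and at GAGGAA (a core recognised by the macrophage factor PU.1) on either strand.
Ccl8, chr11:82114935-82115184, plus strand: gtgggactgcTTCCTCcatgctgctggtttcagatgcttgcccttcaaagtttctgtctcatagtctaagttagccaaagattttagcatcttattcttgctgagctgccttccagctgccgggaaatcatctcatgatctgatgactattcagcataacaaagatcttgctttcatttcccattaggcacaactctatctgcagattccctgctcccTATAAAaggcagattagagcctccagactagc
Ccl12, chr11:82101595-82101844, plus strand: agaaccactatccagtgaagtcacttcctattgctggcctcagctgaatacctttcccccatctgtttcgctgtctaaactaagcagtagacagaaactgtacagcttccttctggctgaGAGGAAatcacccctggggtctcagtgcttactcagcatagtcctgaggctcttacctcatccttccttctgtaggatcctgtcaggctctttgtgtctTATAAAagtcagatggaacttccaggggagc
TATAAA lies 32 bases before the start of Ccl8 and 31 bases before that of Ccl12, while 12.4% of the 32851 promoter windows of this length hold it. GAGGAA lies 240 and 130 bases before the start, and 23.3% of windows hold it. The longest run of letters that the windows share in order is 8 bases, ggaaatca, 128 bases before the start in both. A match of letters is a description of the window and shows no binding.

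Ccl11 and Ccl24 are both eotaxins, and they were counted in opposite compartments. Ccl11 was at 598 CPM in library 1 and 884 CPM in library 2 in Ptx3 Inmt fibroblast-like cells, which held 70.0% of its UMIs. Pericyte or smooth muscle-like cells had 217 and 140 CPM, Schwann-like cells 228 and 41.3 CPM and Igfbp2 fibroblast-like cells 20.7 and 165 CPM, so the order of these classes differed between the libraries. In Schwann-like cells 88 of 121 Ccl11 UMIs came from 1 cell, and 37.6 CPM remained without it. Dermal-papilla fibroblast-like cells had 1 UMI in 3372863. After thinning, 46.3% of Ptx3 Inmt fibroblast-like cells (40.9 to 51.7%) and 12.0% of Igfbp2 fibroblast-like cells held a Ccl11 UMI. Macrophages had 6.66 CPM in all, and a Ccl11 UMI in 28 of 1512 cells before thinning. Within the resident macrophage-like cells Ccl11 was at 5.03 CPM in library 1 and 68.6 CPM in library 2, the library with 36.3% rather than 13.3% fibroblasts, and the part of free or attached fibroblast RNA in that value was not tested.

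Ccl24 was at 488 CPM in library 1 and 413 CPM in library 2 in resident macrophage-like cells, which held 67.6% of its UMIs. The Ly6c2 macrophage cluster had 119 and 65.0 CPM and Dcstamp macrophage-like cells 65.6 and 62.4 CPM. Mast cell-like cells had 0 UMIs in library 1 (up to 32.2 CPM) and 18 UMIs, 229 CPM, in library 2. Inflammatory macrophage-like cells had 65.6 CPM from 11 UMIs (32.8 to 117), and the Spp1 macrophage cluster 9.89 CPM. In all fibroblasts 13 UMIs were counted, 0.964 CPM. A Ccl24 UMI was found in 40.5% of resident macrophage-like cells (36.5 to 44.7%) after thinning and in 0 of 348 Ptx3 Inmt fibroblast-like cells, which allows a share of up to 0.862%. The member most like Ccl24 over all 17 classes was Ccl8 (r = 0.83), although the genes lie on different chromosomes, and without the inflammatory class it was Ccl12 (0.88, against 0.86 for Ccl8).

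The resident macrophage-like class was set apart by these chemokines. Compared with all other macrophages and dendritic cells, 6 of the 10 members were 4-fold or more higher in it, Ccl8 (15.6-fold), Ccl24 (9.68-fold), Ccl7 (8.78-fold), Ccl2 (6.71-fold), Ccl12 (4.64-fold) and Ccl11 (16.1-fold, from 97 UMIs), while 2.52% of 11050 genes were. Of the 97 Ccl11 UMIs 77 were in library 2, and the part of fibroblast RNA in them was not tested. Ccl3, Ccl4, Ccl6 and Ccl9 differed by 1.88-fold or less, but without the inflammatory cells in the comparison Ccl3 was 4.01-fold higher. Ccl11 could not be tested in library 1 alone, where 5 members were past 4-fold. Its main clusters, of 320 and 281 cells, differed in the members they held most of. The cluster of 320 had 10796 CPM of Ccl8, 568 of Ccl24 and 166 of Ccl4, and the cluster of 281 had 5422, 364 and 994 CPM. The sum of 13 immediate early genes, which tissue digestion is known to induce, was highest among macrophage classes in resident macrophage-like cells (14772 CPM) and ran from 5719 to 10173 CPM in the other macrophage classes. Between resident cells with and without a Ccl2 UMI it was 14602 and 17631 CPM, and for Ccl8 14261 and 17804 CPM. The cells without were fewer and shallower. For Ccl2 they were 51 against 550 cells, with medians of 5113 and 8962 UMIs. For Ccl8 they were 105 against 496 cells, with medians of 7622 and 9006.5 UMIs. The split is therefore also a split by depth. Over all macrophages the immediate early sum was higher in cells with a Ccl2 UMI (10042 CPM) than in those without (7130 CPM). The part of this sum in the differences between classes was not tested.

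Ccl3 and Ccl4 stood highest in the 24 inflammatory macrophage-like cells. Ccl3 was at 10603 CPM there (10116 to 11108), with 8886 CPM in the 22 cells of library 1 and 28074 CPM in the 2 cells of library 2. Ccl4 was at 11050 CPM (10553 to 11565), with 8748 and 34476 CPM. Every other class was lower by far in both libraries, the next being resident macrophage-like cells with 276 and 419 CPM of Ccl3 and 577 and 487 CPM of Ccl4. For Ccl4 the following classes, the Ly6c2 macrophage cluster (353 and 512 CPM) and Dcstamp macrophage-like cells (280 and 592 CPM), overlapped each other and the resident cells between the libraries. Of the members, 4 were 4-fold or more higher in inflammatory macrophage-like cells than in other macrophages and dendritic cells, Ccl3 (86.1-fold), Ccl4 (35.2-fold), Ccl12 (18.5-fold) and Ccl2 (5.07-fold), while 1.59% of 11050 genes were. With the stricter cell filter the Ccl12 ratio was 2.23-fold, under the 4-fold limit.

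Within the 24 cells Ccl3 UMIs ran from 2 to 389, with at least 1 in every cell, and Ccl4 UMIs from 0 to 445. The 3 highest cells held 50.1% of the Ccl3 and 57.1% of the Ccl4 UMIs, and the highest, from library 2, 21.9% and 24.0%. Even so, the class as a whole held 35.2% of all Ccl3 and 18.2% of all Ccl4 UMIs in 0.632% of the cells. The class was not recovered under some other clusterings and filters, and with the stricter cell filter the Ccl3 ratio to the rest of the compartment was 12.9-fold. Ccl3 and Ccl4 were also concentrated in the larger classes, as the 10% of resident macrophage-like cells with the most UMIs of a gene held 80.4% of the Ccl3 and 91.9% of the Ccl4 UMIs of that class. The immediate early sum was 14918 CPM in resident cells with a Ccl3 UMI and 14676 CPM in those without, and for Ccl4 16040 and 14208 CPM.

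**Figure D3:**
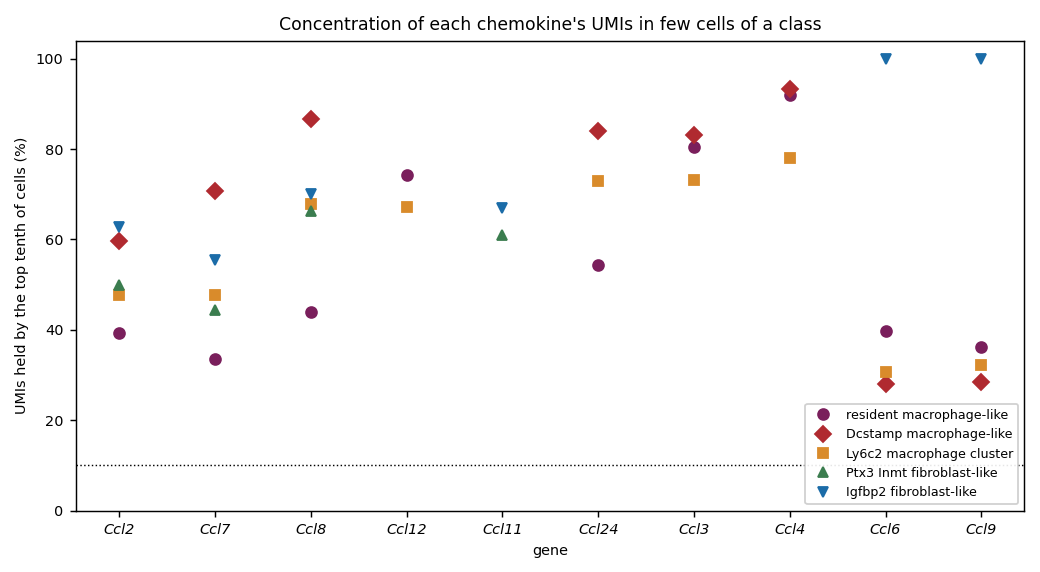
Share of a chemokine's UMIs that the 10% of cells with the most UMIs of it held, in 5 classes, where the class had at least 100 UMIs of the gene. The dotted line marks an equal share (10%). Ccl6 and Ccl9 are spread widely over macrophage cells (28.0 to 39.7%), whereas Ccl4 sits in few of them (78.1 to 93.3%).

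Ccl6 and Ccl9 were the members found in the largest shares of macrophages as a whole (77.5 and 82.1% after thinning to 2000 UMIs), with Dcstamp macrophage-like cells in the lead. Ccl6 was at 2552 CPM in library 1 and 2476 CPM in library 2 in this class, above the Spp1 macrophage cluster (1730 and 2032 CPM) and the Ly6c2 macrophage cluster (1674 and 1657 CPM). Ccl9 was at 1898 and 2016 CPM, against 1439 and 1713 CPM in the Ly6c2 macrophage cluster and 1487 and 1454 CPM in the Spp1 macrophage cluster. The intervals of these clusters overlap over both libraries and in library 1, but not in library 2 (1644 to 1785 and 1332 to 1585 CPM). Resident macrophage-like cells had 1170 CPM of Ccl6 and 1153 CPM of Ccl9. Inflammatory macrophage-like cells had 209 CPM of Ccl6, the lowest of the macrophage classes. In no comparison within the compartment did either gene reach 4-fold higher, and the Dcstamp macrophage-like cells exceeded the rest by 2.55-fold for Ccl6 and 1.92-fold for Ccl9. In the same class 4 of 10 members were 4-fold or more lower than in the rest (Ccl7, Ccl8, Ccl11, Ccl12), while 3.99% of 11050 genes were. For Ccl11, with 3 UMIs in the class, no fold is given.

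After thinning, 93.2% of Dcstamp macrophage-like cells (90.1 to 95.5%) held a Ccl6 UMI and 91.3% (88.0 to 93.9%) a Ccl9 UMI, against 1.52% and 6.06% of keratinocyte-like cells. In resident macrophage-like cells the shares were 65.3 and 74.7%, below those of Ccl2 (82.6%) and Ccl7 (87.4%). In the inflammatory macrophage-like cells they were 29.2 and 45.8%. In dendritic-like cells Ccl9 was at 456 CPM in library 1 and 436 CPM in library 2, and 48.2% of those cells (43.8 to 52.6%) held a UMI. Ccl6 was at 249 and 224 CPM in dendritic-like cells. Fibroblasts had 19.5 CPM of Ccl6 and 18.8 CPM of Ccl9, and in the Igfbp2 fibroblast-like class they came from 24 and 27 of its 338 cells.

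Ccl6 and Ccl9 lie 9245 bases apart on the same strand, and the 250 bases before their starts are printed because the genes were the most alike of all pairs. Capitals mark the TATA box TATAAA, the AP-1-like pattern TGANTCA and the NF-kappaB motif on either strand, overlapping matches included. N stands for any base, and the match in Ccl9 has A there. GAGGAA was also searched for and occurs in neither.
Ccl6, chr11:83593088-83593337, minus strand: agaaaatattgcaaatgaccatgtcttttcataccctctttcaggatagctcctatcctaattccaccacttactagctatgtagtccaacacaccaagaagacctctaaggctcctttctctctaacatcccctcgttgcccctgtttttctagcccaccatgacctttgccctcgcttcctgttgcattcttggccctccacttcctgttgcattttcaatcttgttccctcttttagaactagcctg
Ccl9, chr11:83578637-83578886, minus strand: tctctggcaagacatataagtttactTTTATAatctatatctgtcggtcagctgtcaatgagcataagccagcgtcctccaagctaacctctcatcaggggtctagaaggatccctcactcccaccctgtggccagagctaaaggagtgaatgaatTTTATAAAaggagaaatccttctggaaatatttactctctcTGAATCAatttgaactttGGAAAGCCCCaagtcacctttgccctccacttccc
The windows share a run of 13 bases, gccctccacttcc, which begins 55 bases before the start of Ccl6 and 14 bases before that of Ccl9, and 3 of 236 distinct runs of 12 bases, while every other pair among the 5 windows shares 0. The window of Ccl9 holds TGANTCA 53 bases before the start (6.75% of all windows hold this motif), an NF-kappaB match 35 bases before it (3.90%), and TATAAA at 92, 94 and 224 bases, the nearer matches overlapping. None of these 3 motifs occurs in the window of Ccl6, which says only that the letters are not in those 250 bases.

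Dendritic-like cells had less of nearly every member than macrophages did. Of the 10, 9 were 4-fold or more lower in dendritic-like cells, while 5.88% of 11050 genes were, and Ccl9 was 3.38-fold lower. Without the 24 inflammatory macrophage-like cells 7 of 10 were, as Ccl3 was then 3.95-fold and Ccl4 3.33-fold lower. With these cells included, the ratio of the 9 ran from 4.17-fold for Ccl4 to 151-fold for Ccl12, and for Ccl11, with 3 UMIs in dendritic-like cells, no fold is given. The clusters within the class differed. The cluster led by Ccr7, Il4i1 and Ccl22 had 209 CPM of Ccl4 and 79.0 CPM of Ccl6, and the largest cluster, led by Mmp12 and Cd207, had 44.8 and 303 CPM.

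**Figure D4:**
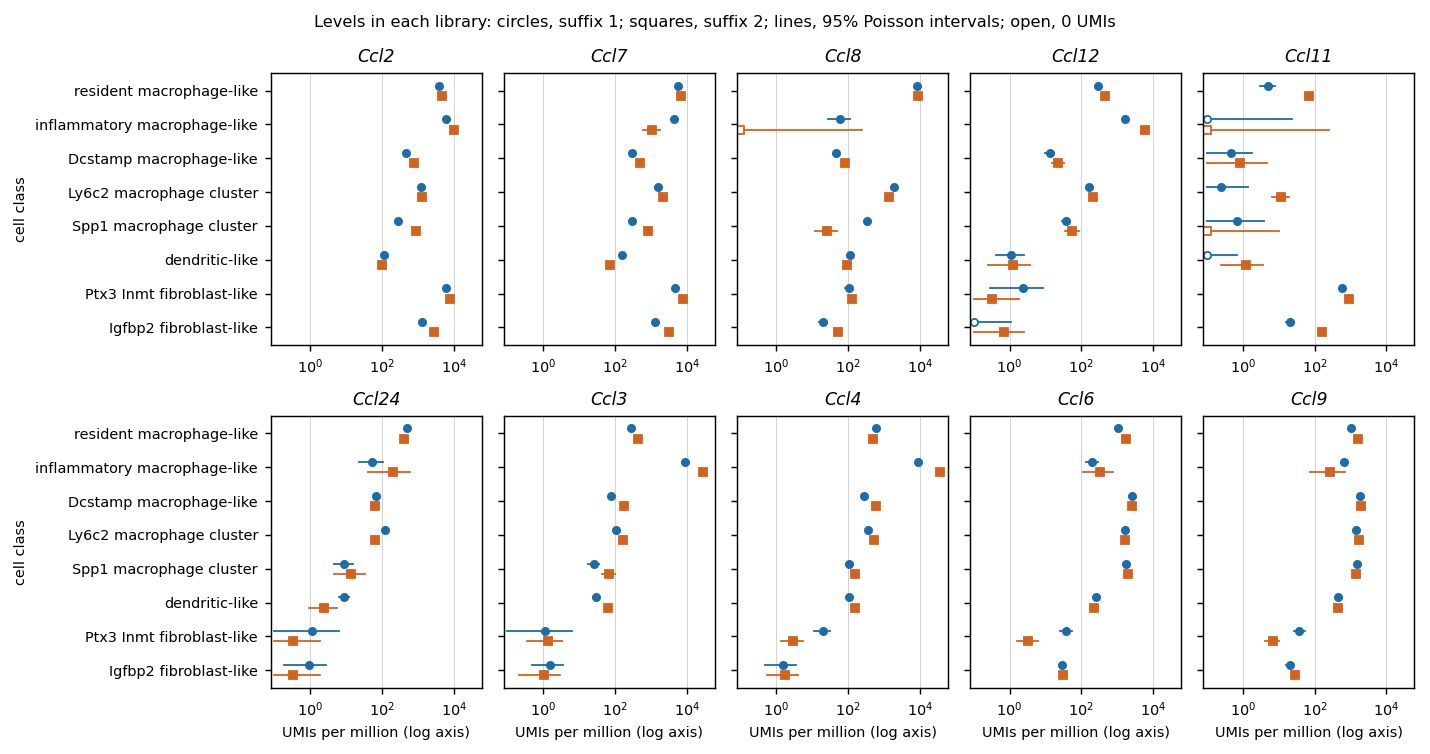
Level of each chemokine in 8 classes, as UMIs per 1000000 on a log axis, for the library with suffix 1 (circles) and suffix 2 (squares), with 95% Poisson intervals as lines and counts of 0 as open symbols at the left edge. Resident macrophage-like cells reach 8119 and 8740 CPM of Ccl8 in the libraries, while Ccl11 in the same cells differs, 5.03 against 68.6 CPM.

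Blood endothelial-like cells had 288 CPM of Ccl2, with a UMI in 68 of 294 cells, and the 10% of cells with the most held 96.4%. Their small cluster of 48 cells, led by Selp and Sele, the selectins of activated venules, had 565 CPM of Ccl2 and 259 CPM of Ccl11. The main cluster of 246 cells had 179 and 2.63 CPM. The Ccl11 of the class rested on 1 cell for 135 of 278 UMIs, and was 74.8 CPM with it and 38.7 CPM without it. That cell lay in the small cluster, as the main cluster held 7 Ccl11 UMIs in all. Ccl6 and Ccl9, at 204 and 169 CPM in blood endothelial-like cells, came almost wholly (99.1 and 98.4%) from 10% of the cells, and the class held C1q RNA at 324 CPM. Its part in these values was not tested. Schwann-like cells had 720 CPM and pericyte or smooth muscle-like cells 674 CPM of Ccl2, above the 531 CPM of Dcstamp macrophage-like cells. In pericyte or smooth muscle-like cells 33 of 71 cells held a Ccl2 UMI and the 10% of cells with the most held 58.5%, against 90.5% in Schwann-like cells. In pericyte or smooth muscle-like cells Ccl8, Ccl12, Ccl24, Ccl3 and Ccl4 were at 0 of 547646 UMIs, which allows up to 5.48 CPM each.

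Across single cells the pairs seen over classes held again. In the 1512 macrophages, Pearson r of ln(UMIs per 10000 + 1) was 0.81 between Ccl2 and Ccl7 (0.81 in library 1 and 0.80 in library 2), 0.61 between Ccl3 and Ccl4 (0.60 and 0.64) and 0.60 between Ccl6 and Ccl9 (0.61 and 0.58). In the 827 fibroblasts it was 0.75 between Ccl2 and Ccl7 (0.72 and 0.75). After thinning, 81.7% of 868 macrophages with a Ccl2 UMI also held one of Ccl7, against 24.7% of 582 without, and in fibroblasts the shares were 86.8% and 27.4%. The cells of a class share their library and depth, so these values carry no test. Within resident macrophage-like cells Ccl8 went the other way from Ccl3 and Ccl4. Of 447 with a Ccl8 UMI, 13.6% held one of Ccl4, against 31.7% of 123 without, and r was -0.30 in each library. For Ccl8 with Ccl3, r was -0.30 in library 1 and -0.15 in library 2. These are weak relations in sparse counts. The class is made of 2 clusters that differ in Ccl8 and Ccl4, and the part of this difference was not tested.

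**Figure D5:**
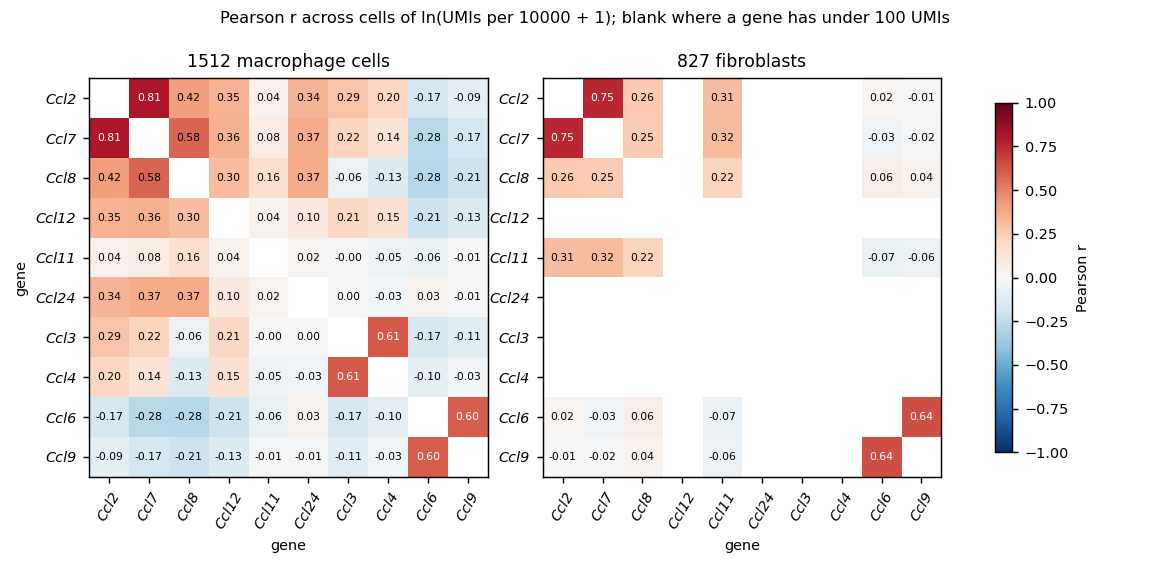
Pearson r between chemokines across single cells, of ln(UMIs per 10000 + 1), in 1512 macrophages (left) and 827 fibroblasts (right), blank where a gene had under 100 UMIs. The highest values in macrophages are those of Ccl2 with Ccl7 (0.81), Ccl3 with Ccl4 (0.61) and Ccl6 with Ccl9 (0.60).

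Genes outside the chemokine family with the pattern most like each member over the 17 classes were named by a fixed rule, the 3 with the highest Pearson r of log2(CPM + 10). For Ccl2 they were Ifi211 (0.87), Ifi204 (0.87) and Vcam1 (0.85), and for Ccl7 Ifi204 (0.88), Ifi207 (0.85) and Ifi211 (0.84). The Ifi genes are interferon-inducible, and Vcam1 is an adhesion molecule for leukocytes. Those for Ccl8 were Pcyt1a (0.90), Folr2 (0.87), a folate receptor of resident macrophages, and Ddx60 (0.86). Ccl24 came with Mmp9 (0.91), F13a1 (0.89) and Vps26a (0.87), and Ccl11 with Gstt1 (0.97), Col8a1 (0.96) and Galnt16 (0.92). Ccl12 was nearest to Tlr7 (0.95), Cd33 (0.94) and Il10 (0.93), Ccl3 to Siglece (0.96), Smpdl3b (0.96) and Gm48065 (0.93), and Ccl4 to Nlrp3 (0.96), Il10 (0.95) and Tnf (0.95), all of which were highest in the 24 inflammatory macrophage-like cells. Without that class the values of these 9 ran from 0.79 to 0.95. Folr2 and Tnf are also markers by which the resident and inflammatory macrophage-like classes were named. Their likeness to Ccl8 and Ccl4 over the classes is therefore partly built in. Ccl6 was nearest to Sdc3 (0.97), Pirb (0.96) and Fem1c (0.96), and Ccl9 to Rilpl2 (0.99), Fcgr3 (0.98) and Cd68 (0.97).

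Receptors for several of these chemokines were counted mainly in the phagocytes themselves. Ccr1 was at 154 CPM in macrophages and 1.63 CPM in fibroblasts, and Ccr2 at 389 and 4.60 CPM. Ccr2 was at 553 CPM in the Spp1 macrophage cluster, 519 CPM in the Ly6c2 macrophage cluster, 395 CPM in Dcstamp macrophage-like cells and 197 CPM in resident macrophage-like cells, which of these had the most Ccl2 and Ccl7. Ccr3, the eotaxin receptor, had 16 UMIs in all cells, and Ccr8, the receptor of Ccl8, had 8 UMIs, all in T or ILC-like cells (25.8 CPM). The atypical receptors, which bind chemokines without classical signalling, were counted mainly in stromal cells, and Ackr4 also in keratinocyte-like cells. Ackr1 was at 181 CPM in Ptx3 Inmt fibroblast-like cells, 159 CPM in Igfbp2 fibroblast-like cells and 131 CPM in blood endothelial-like cells. Ackr2 was at 131 CPM in lymphatic endothelial-like cells. Ackr4 was at 46.3 CPM in dermal-papilla fibroblast-like cells and 29.6 CPM in keratinocyte-like cells. Of 14 other CC ligands on a list set for this work, Ccl5 was highest in T or ILC-like cells (3033 CPM) and Ccl17 (83.5 CPM) and Ccl22 (153 CPM) were counted mainly in dendritic-like cells. Ccl21a, which guides cells into lymphatic vessels, was at 25659 CPM in lymphatic endothelial-like cells, Ccl27a at 918 CPM in keratinocyte-like cells and Ccl19 at 123 CPM in fibroblasts. These 3 symbols stand on several rows of the matrix, which were summed, and reads of such near-identical copies are uncertain. Ccl21b, Ccl21c, Ccl26 and Ccl27b had 0 UMIs in the cells kept.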

How the data were processed

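The deposited values are whole-number UMI counts per gene and cell, which the authors made with Cell Ranger 4.0.0 on mm10, per the labels, from 3′ libraries with v3.1 chemistry. Both libraries were deposited as 1 matrix without normalization, and no source read for this work states a cell filter before deposit. The members and gene lists were chosen with earlier results of these data known.

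Cells were kept with at least 500 genes, 1000 UMIs and at most 10% mitochondrial UMIs. In Python 3.11.15 with scanpy 1.11.5, counts were scaled to 10000 per cell and logged, and cells were clustered by the Leiden method (leidenalg 0.10.2, resolution 1) on 2000 variable genes without the chemokine and receptor families, using 15 neighbours in 30 principal components. Clusters were named from 28 marker lists by their mean log2 excess over the median cluster, with at least 3 raised markers (20 CPM or more and 2-fold or more above the median cluster). This naming rule was set after the clusters were seen. Scrublet called 6 doublets, too few to count as treatment, so doublets were left in. Levels are UMI sums of a class per 1000000 UMIs (CPM) with exact Poisson intervals. UMIs count 3′ ends of molecules and were not divided by gene length. Ratios between classes were computed for every gene with at least 30 UMIs over both, with sums under a floor of 3 UMIs over the class set to the floor, and were called at 4-fold. Ratios against a class at or under the floor are not printed. The calls were checked on simulated counts. Shares of cells used cells thinned to 2000 UMIs, leaving out 31 of 601 resident macrophage-like and 31 of 379 Ptx3 Inmt fibroblast-like cells, with exact Clopper-Pearson intervals at 95%. Genes were named by the fixed rule of the 10 members, the receptor, ligand and immediate early lists, the defining markers, and the 3 most alike genes per member of at least 50 CPM in a class of at least 20 cells. Some listed genes are not reported here.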

Additional observations from a re-analysis of the deposited data

Results flagged for a closer look

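The 1460 barcodes removed by the filter, which no level above uses, held 9249 UMIs of the 10 chemokines in 5403713 UMIs, or 0.171% of their UMIs against 0.620% in the cells kept. Ccl8 (543 CPM), Ccl2 (391 CPM) and Ccl7 (354 CPM) were the highest there, and Ccl12 (10.4 CPM) the lowest. The result is given because it is a signal in data outside the comparisons, and no control samples were at hand to set it against.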

How the results depend on the processing

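No paired analysis was possible because each age has 1 library and no test was run. The 7 members 4-fold or more higher in macrophages and the 1 higher in fibroblasts kept these counts under all 15 alternatives, which were 2 cell filters, 2 clustering resolutions, 3000 variable genes, immediate early genes left out of the variable genes, each library alone, means over cells, removal of 42 cells with a Scrublet score of 0.2 or more, removal of cells with RNA of the other compartment, classes from single cells (620 and 934 cells), 2-fold, no UMI minimum and, added after seeing the data, the inflammatory cells left out. Leaving out the highest cell of a class was also added then. The log2 ratio of Ccl2 in macrophages over fibroblasts ran from -1.30 to 0.37 and that of Ccl7 from -0.99 to 0.91, above 0 with suffix 1 alone (both) and with classes from single cells (Ccl7), so their direction is not settled. No leading-class ratio changed sign. Of 105 such values 76 moved beyond counting error, most of all in the inflammatory class, which no cluster was named as with the looser filter, at resolution 0.5, with 3000 variable genes or without immediate early genes, and which had under 10 cells in library 2. There the Ccl12 ratio ran from 1.16 to 4.24, the Ccl3 ratio from 3.69 to 6.43 and the Ccl4 ratio from 2.87 to 5.18 on the log2 scale, the lowest each with the stricter filter. The cause was not tested. Of the other counts of called members, each library alone and the inflammatory cells left out were also added after seeing the data. The count for Ptx3 Inmt fibroblast-like cells was 3 over both libraries, 5 in library 1 and 1 in library 2, and the others stayed within 1.5 times. Thinning to 1000 UMIs moved 7 of 10 shares beyond their intervals.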
